A study of Mus musculus with 12 samples.

Results

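The 26S proteasome genes were followed through mTOR inhibition in 2 mouse embryonic stem (ES) cell lines. Members were all genes whose symbol starts with Psm, a letter from a to g and a number, without the mark -ps of pseudogene copies. The rule found 50 genes among 54446 listed identifiers, and the 4 copies left out reached at most 0.455 TPM, a unit that gives each gene's length-corrected share of a library's RNA. Of the 50 members, 48 fall into functional classes. The other 2 matched the rule by name and were put in no class. These are Psme2b, a gene named for its likeness to Psme2, and Psmc3ip, a meiotic recombination factor that is not a subunit.

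RNA sequencing covered 12 libraries, 2 for each of 6 groups. KH cells and DNMT3ABKO cells, in which both de novo methyltransferase genes, Dnmt3a and Dnmt3b, were knocked out, were each taken untreated (0 h) and after 72 and 144 h in the mTOR kinase inhibitor INK128 (mTORi). The labels put E14 before both line names, whereas the study's methods call the wild type KH2. No untreated culture of 72 or 144 h was analysed here, so treatment and time in culture cannot be told apart, and with 1 line per genotype, genotype and line cannot be told apart. According to the methods the lines grew on mitomycin-treated feeders, and cells were sorted by flow cytometry before total RNA was extracted. The study's reporting form speaks, for its experiments in general, of independent repeats and of biological replicates, while the labels do not say what separates the 2 libraries of a group. The p-values measure the spread between these libraries. Mean Dnmt3a was 56.2, 60.9 and 109.9 TPM at 0, 72 and 144 h in KH and 9.45, 12.3 and 19.4 TPM in DNMT3ABKO. The KH libraries of 144 h lay far apart for Dnmt3a, at 76.3 and 143.6 TPM. Mean Dnmt3b was 257, 177 and 145 TPM against 26.9, 25.01 and 12.9 TPM, so both genes were lower in the libraries labelled DNMT3ABKO.

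The proteasome degrades proteins tagged with ubiquitin. Its 20S core is a barrel of stacked rings, in which alpha subunits (Psma genes) form the gate and beta subunits (Psmb genes) the chamber. Psmb6, Psmb7 and Psmb5 carry the caspase-like, trypsin-like and chymotrypsin-like activities. The 19S regulator, made of ATPases (Psmc) and non-ATPases (Psmd), binds, unfolds and de-ubiquitinates substrates. Under immune signals Psmb9, Psmb10 and Psmb8 replace the catalytic subunits, which favours peptides for antigen presentation, and Psme1 with Psme2 form PA28, an alternative cap. Dedicated chaperones (Psmg genes for the core, and Psmd5, Psmd9 and Psmd10 for the 19S base) help assemble the particle. Transcription of the standard subunits is known to be raised by NRF1 (Nfe2l1) through antioxidant response elements.

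Promoter windows are shown for a pair of standard catalytic subunits that fell with mTORi in both lines (Psmb5 and Psmb6), for the immune counterpart of Psmb5 (Psmb8) and for Psme1, whose response differed between lines. Each window runs 5′ to 3′ on the gene's strand, from 250 bases before to 50 bases after the RefSeq start (GRCm38.p6). Capitals mark TGACNNNGC, the core of the antioxidant response element, or an interferon regulatory factor (IRF) element made of GAAANN followed directly by GAAA, on either strand.
Psmb5, chr14:54617946-54618245, minus strand: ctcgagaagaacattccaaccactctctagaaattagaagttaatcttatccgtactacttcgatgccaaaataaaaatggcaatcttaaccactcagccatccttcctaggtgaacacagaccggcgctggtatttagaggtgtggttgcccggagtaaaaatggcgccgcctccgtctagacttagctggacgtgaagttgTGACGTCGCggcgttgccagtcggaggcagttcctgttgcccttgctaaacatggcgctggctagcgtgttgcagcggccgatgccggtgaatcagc
Psmb6, chr11:70525107-70525406, plus strand: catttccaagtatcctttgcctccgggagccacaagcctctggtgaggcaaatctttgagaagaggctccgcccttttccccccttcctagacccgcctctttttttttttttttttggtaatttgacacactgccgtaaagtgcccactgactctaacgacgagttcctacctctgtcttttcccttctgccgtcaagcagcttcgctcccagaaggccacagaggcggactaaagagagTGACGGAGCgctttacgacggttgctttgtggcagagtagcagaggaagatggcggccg
Psmb8, chr17:34197945-34198244, plus strand: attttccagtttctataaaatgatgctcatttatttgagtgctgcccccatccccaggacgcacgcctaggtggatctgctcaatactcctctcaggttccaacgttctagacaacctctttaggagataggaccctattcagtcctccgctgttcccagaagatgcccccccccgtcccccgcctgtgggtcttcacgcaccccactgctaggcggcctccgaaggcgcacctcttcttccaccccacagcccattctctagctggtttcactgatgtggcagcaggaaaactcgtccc
Psme1, chr14:55578244-55578543, plus strand: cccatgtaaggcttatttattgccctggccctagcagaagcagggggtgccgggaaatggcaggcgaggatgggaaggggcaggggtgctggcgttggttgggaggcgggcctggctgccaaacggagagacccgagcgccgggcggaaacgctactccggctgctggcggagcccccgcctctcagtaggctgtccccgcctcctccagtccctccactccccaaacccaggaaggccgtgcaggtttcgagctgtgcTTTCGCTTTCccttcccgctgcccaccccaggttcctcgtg

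Both standard genes hold the antioxidant core before the start, at offsets of -47 in Psmb5 and -9 in Psmb6. Psme1 holds the IRF element at offset 9, on the opposite strand, and neither motif was found in the Psmb8 window. The Psmb8 and Psme1 windows begin inside the listed gene spans, which start at 34197721 and 55578123. Bases before those listed starts were not searched. A RefSeq window was matched by symbol for 42 of the 50 members, and 8 had none (Psma8, Psmb1, Psmb2, Psmb7, Psmc3, Psmd3, Psmd7 and Psmg2). The antioxidant core was present in 6 (14.3%) of the 42, namely Psmb5, Psmb6, Psmc6, Psmd12, Psmd9 and Psme4, beside 13.99% of the 27025 genes with a window. The IRF element was present in 5 (11.9%), namely Psmb3, Psmd4, Psmd9, Psme1 and Psmg4, beside 3.99% of all genes. The CCAAT box, which NF-Y binds, was present in 15 (35.7%) beside 41.1%, and the E-box CACGTG in 4 (9.52%) beside 8.09%. These matches are letters in a window and no evidence of binding.

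The standard subunits were abundant. The 31 standard 20S and 19S genes averaged between 75.9 TPM (Psma2) and 299.5 TPM (Psmb6) over the 12 libraries. In every library Psmb6 was the highest 20S gene and Psma2 the lowest, 3.57- to 4.69-fold apart. Psmd13 was always the lowest 19S gene, 2.16- to 2.47-fold below the highest. Gm15542, a processed pseudogene on the same strand, overlaps Psmd13 and averaged 62.7 TPM. Reads may be split between these entries, so the rank of Psmd13 is uncertain. All members together made up 0.661% and 0.708% of the TPM in the KH libraries at 0 h and 0.631% and 0.687% in DNMT3ABKO. With mTORi the shares were 0.559% and 0.554% at 72 h and 0.560% and 0.554% at 144 h in KH, with 0.554% and 0.546% at 72 h and 0.569% and 0.581% at 144 h in DNMT3ABKO. Every treated library thus lay below every untreated one. TPM gives relative levels, and in bulk samples fewer cells of a type and less RNA per cell cannot be told apart. From values normalized to added spike-in RNA, the study reports that global expression fell under mTORi in wild-type and Dnmt3a/b knockout cells. A rise in TPM is a rise in share, and need not be one in transcripts per cell.

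The marker lists moved along with the treatment. The 10 ES cell genes summed to between 4325 and 4606 TPM at 0 h and between 6434 and 6872 TPM with mTORi, with 9, 9, 9 and 8 called higher and 0, 0, 1 and 1 lower at KH 72 h, KH 144 h, DNMT3ABKO 72 h and DNMT3ABKO 144 h. All 17 tested fibroblast markers of 18 were lower in each of these comparisons, with sums between 2000.2 and 2330.5 TPM at 0 h, 437 and 592 TPM at 72 h and 95.03 and 117 TPM at 144 h. The 15 macrophage markers summed to between 307 and 390.0 TPM, 177 and 271 TPM and 41.6 and 62.00 TPM, with 9, 15, 11 and 13 lower and 2, 0, 1 and 0 higher. Over all tested genes, 28.3%, 27.4%, 34.3% and 31.4% were called higher and 19.5%, 23.9%, 21.6% and 26.2% lower in the same order. C1qb was at 0 in both KH libraries of 144 h and Tyrobp in replicate 1 of them. The part of such cells in the changes of the proteasome genes was not tested.

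**Figure D1:**
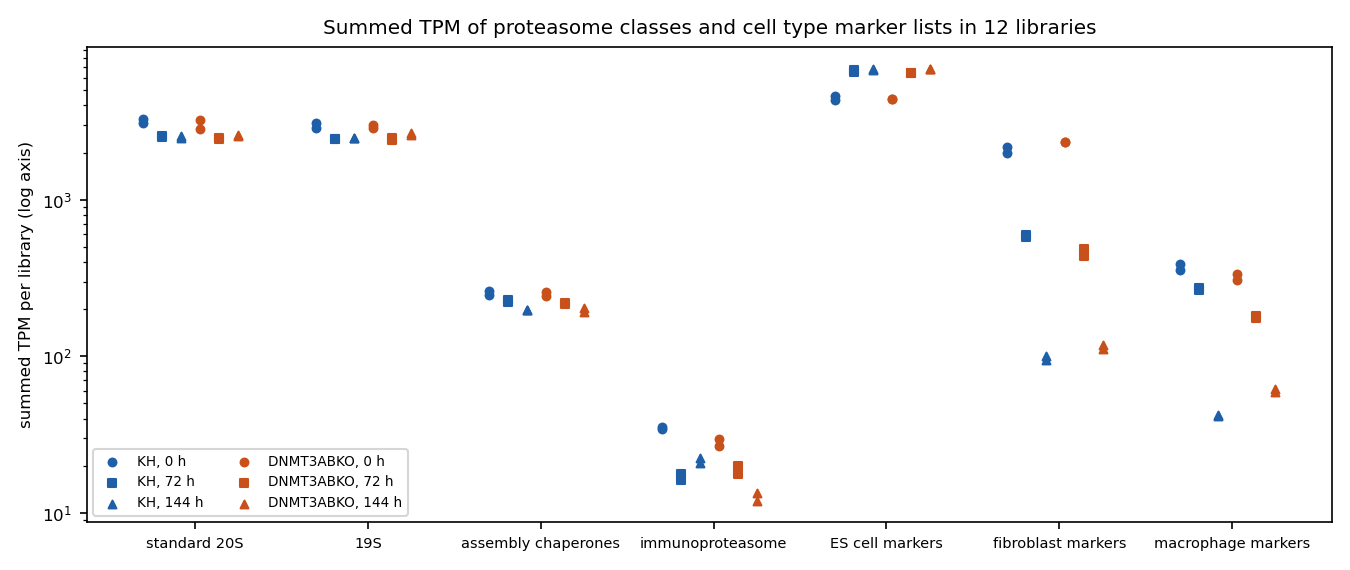
Summed TPM per library (log axis) of 4 proteasome classes and 3 marker lists, with each point 1 library, blue for KH, orange for DNMT3ABKO, and circles, squares and triangles for 0, 72 and 144 h. The 20S sums lie between 2837 and 3271 TPM at 0 h and between 2452 and 2577 TPM later, while the fibroblast marker sums end between 95.03 and 117 TPM.

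Under mTORi most proteasome genes fell, in both lines. A gene was called changed at an adjusted p under 0.05 (limma, Benjamini-Hochberg adjustment over the 15727 genes that averaged 1 TPM or more) on log2(TPM + 1), a scale that understates changes of low genes. This filter passed 48 members and left out Psmb9 and Psmb11. At 72 h in KH, 32 of the 48 were lower and 1 higher, where 19.5% of all tested genes were called lower and 28.3% higher. In DNMT3ABKO 31 were lower and 1 higher, beside 21.6% and 34.3% of all genes. At 144 h 32 were lower and 1 higher in KH, beside 23.9% and 27.4%, and 28 were lower and 3 higher in DNMT3ABKO, beside 26.2% and 31.4%. The members' median log2 fold changes at KH 72 h, KH 144 h, DNMT3ABKO 72 h and DNMT3ABKO 144 h were -0.30, -0.31, -0.30 and -0.21, where those of all genes were 0.08, 0.05, 0.12 and 0.05. The lower sets of the lines shared 29 genes at 72 h, that is 90.6% of the KH set and 93.5% of the DNMT3ABKO set, and 24 genes at 144 h, that is 75% and 85.7%. Over all tested genes the lower sets shared 78.5% of the KH set and 70.9% of the DNMT3ABKO set at 72 h, and 80.9% and 73.9% at 144 h.

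**Figure D2:**
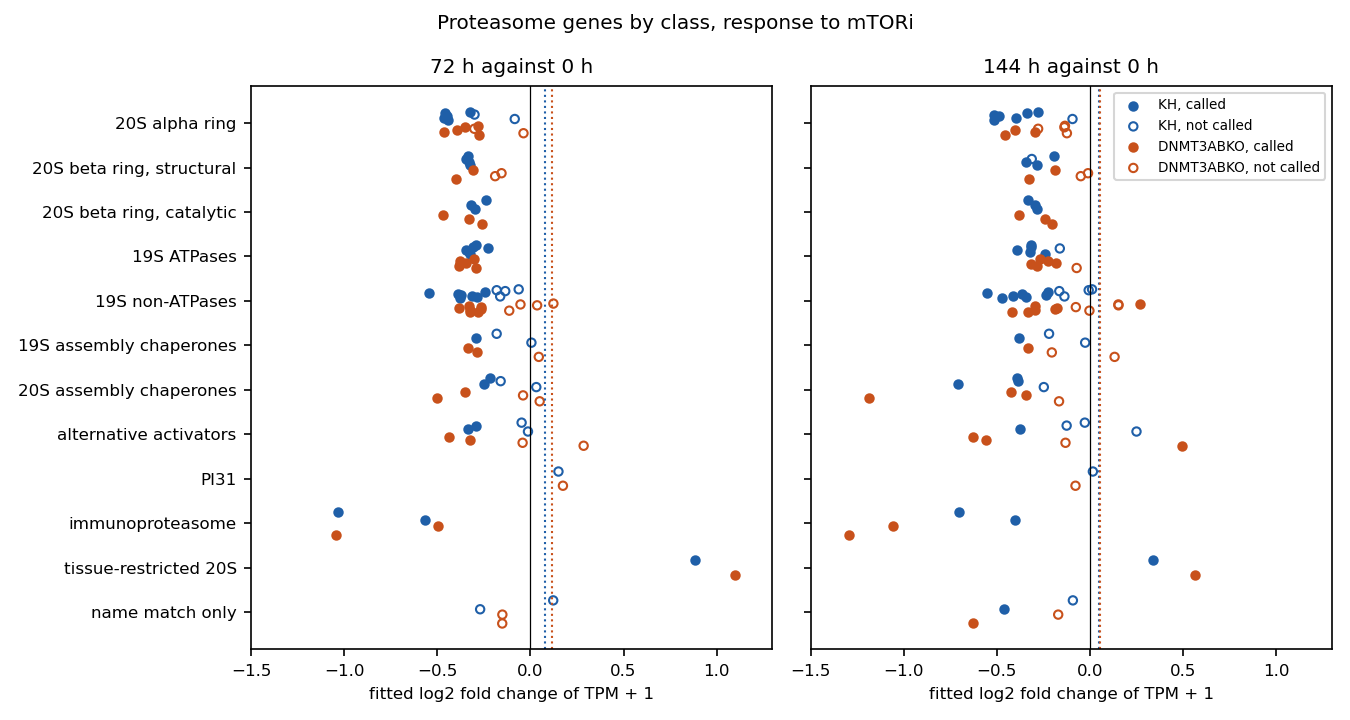
Fitted log2 fold change of TPM + 1 against 0 h (x axis) for the 48 tested members by class (y axis), at 72 h (left) and 144 h (right), with blue for KH, orange for DNMT3ABKO, filled points for called genes, open points for the others, and dotted lines for the median of all tested genes. Most core and 19S genes lie left of 0. The immunoproteasome genes and Psmg3 reach further left, except Psmg3 in KH at 72 h and Psmb8 in KH at 144 h. Psma8 (tissue-restricted 20S) lies to the right in all 4 comparisons.

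With only the compared groups in the fit, 19 members were called in DNMT3ABKO at 72 h and 15 at 144 h, in place of 32 and 31. The 2 untreated DNMT3ABKO libraries stood apart, with a residual SD of 0.272 on the log2 scale beside 0.133 to 0.176 in the other groups, and with 12.5% and 7.59% of TPM on Gm26917, the most abundant entry of each library. Without replicate 1 of that pair, 36 and 37 members were called at 72 and 144 h, with medians of -0.33 and -0.28. Without replicate 2, 33 and 29 were called, with medians of -0.23 and -0.18.

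Of the 7 standard subunits of the alpha ring, which gates the core, 5 fell at 72 h and 6 at 144 h in KH. In DNMT3ABKO 5 and 3 fell. Class medians were -0.45, -0.40, -0.30 and -0.28 in the same order. Among all tested genes 19.5% and 23.9% were called lower in KH, and 21.6% and 26.2% in DNMT3ABKO. Psma7 (ENSMUSG00000027566.15, chromosome 2, 180036374 to 180042433, mm10) had the largest single fall of the class, in KH at 144 h. At 72 h the lowest value of the class was -0.47 in each line and belonged to another gene. In KH it stood at 302 and 291 TPM at 0 h, 215 and 219.7 TPM at 72 h and 213 and 201 TPM at 144 h. The DNMT3ABKO libraries were at 284 and 280.5 TPM, 228 and 237 TPM and 195 and 217 TPM at the same times. The treated libraries lay below the untreated ones of their line without overlap. Its log2 fold changes at 72 and 144 h were -0.45 ± 0.07 and -0.52 ± 0.07 (SE) in KH, with adjusted p = 0.00046 and 0.00013. In DNMT3ABKO they were -0.28 ± 0.07 and -0.46 ± 0.07, with adjusted p = 0.0054 and 0.00022, and the first was not called with only the compared groups in the fit (adjusted p = 0.058). Psma6, singled out after its values were seen, was the 1 standard alpha gene called in none of these comparisons, at 223 to 265 TPM over all libraries.

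Among the 4 structural beta subunits 4 and 3 fell in KH at 72 and 144 h, and 2 and 2 in DNMT3ABKO. Class medians were -0.33, -0.30, -0.25 and -0.12 in the same order. The shares of all genes called lower were 19.5% and 23.9% in KH and 21.6% and 26.2% in DNMT3ABKO. Psmb4 (ENSMUSG00000005779.12, chromosome 3, 94884093 to 94886961) had the largest single fall of the class, in DNMT3ABKO at 72 h. In KH other genes of the class fell further, down to -0.35 at 72 h and -0.34 at 144 h. KH levels were 253 and 270.5 TPM at 0 h, 211 and 207 TPM at 72 h and 221 and 208 TPM at 144 h, and DNMT3ABKO levels were 251 and 255 TPM, 192 and 191 TPM and 203 and 199 TPM. Untreated and treated libraries did not overlap in either line. The log2 fold changes at 72 and 144 h were -0.32 ± 0.06 and -0.29 ± 0.06 in KH (adjusted p = 0.0015 and 0.0025) and -0.40 ± 0.06 and -0.33 ± 0.06 in DNMT3ABKO (adjusted p = 0.00029 and 0.00086).

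All 3 standard catalytic subunits, the sites that cleave proteins, fell in the 4 comparisons against 0 h. At 72 and 144 h, 19.5% and 23.9% of all genes were called lower in KH and 21.6% and 26.2% in DNMT3ABKO. Psmb5 (ENSMUSG00000022193.7, chromosome 14, 54614119 to 54618022) was at 195 and 204 TPM at 0 h, 171 and 167 TPM at 72 h and 160.4 and 157 TPM at 144 h in KH, and at 212 and 199.5 TPM, 146 and 151 TPM and 161 and 153 TPM in DNMT3ABKO. Psmb6 (ENSMUSG00000018286.6, chromosome 11, 70525367 to 70527858) was at 321 and 352 TPM, 271 and 266 TPM and 272 and 275 TPM in KH, and at 341 and 355 TPM, 277 and 276 TPM and 295 and 294 TPM in DNMT3ABKO. Psmb7 (ENSMUSG00000026750.6, chromosome 2, 38588036 to 38644087) was at 264 and 279.6 TPM, 223 and 218 TPM and 224 and 221 TPM in KH, and at 254 and 277 TPM, 223 and 219.6 TPM and 232 and 228 TPM in DNMT3ABKO. For each of the 3 genes every treated library lay below every untreated library of its line, and none was called between 72 and 144 h.

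The log2 fold changes of Psmb5 at KH 72 h, KH 144 h, DNMT3ABKO 72 h and DNMT3ABKO 144 h were -0.24 ± 0.06, -0.33 ± 0.06, -0.47 ± 0.06 and -0.38 ± 0.06, with adjusted p = 0.0088, 0.0012, 0.00012 and 0.00036. Leaving out KH replicate 2 of 0 h or of 72 h ended the first call (adjusted p from 0.052 to 0.064). Those of Psmb6 were -0.32 ± 0.06, -0.29 ± 0.06, -0.33 ± 0.06 and -0.24 ± 0.06, with adjusted p = 0.0017, 0.0023, 0.001 and 0.0058. Those of Psmb7 were -0.30 ± 0.06, -0.29 ± 0.06, -0.26 ± 0.06 and -0.20 ± 0.06, with adjusted p = 0.0029, 0.0032, 0.0052 and 0.016. With only the compared groups in the fit, the DNMT3ABKO calls ended for Psmb6 at 144 h (adjusted p = 0.091) and for Psmb7 at 72 h (adjusted p = 0.084). That of Psmb7 at 144 h ended there too, and without either DNMT3ABKO library of 144 h (adjusted p from 0.055 to 0.16). No difference between lines in the response of these genes was called (adjusted p from 0.18 to 0.96), the one of Psmb5 at 72 h being -0.23 ± 0.08.

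The 6 ATPases of the 19S base unfold substrates. Of them 6 and 5 fell in KH at 72 and 144 h, and 6 and 5 in DNMT3ABKO. Class medians were -0.32, -0.32, -0.36 and -0.25 in the same order. The shares over all genes were 19.5% and 23.9% lower in KH and 21.6% and 26.2% lower in DNMT3ABKO. Psmc4 (ENSMUSG00000030603.16, chromosome 7, 28041707 to 28050101) was at 238 and 267 TPM at 0 h, 198 and 198 TPM at 72 h and 191 and 192 TPM at 144 h in KH, and at 237 and 235 TPM, 183 and 179.7 TPM and 189.6 and 189 TPM in DNMT3ABKO. Its treated libraries were all below the untreated ones. Its log2 fold changes were -0.35 ± 0.06 and -0.39 ± 0.06 in KH (adjusted p = 0.0015 and 0.00057) and -0.38 ± 0.06 and -0.32 ± 0.06 in DNMT3ABKO (adjusted p = 0.00065 and 0.0017).

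Of the 11 non-ATPases of the 19S, 7 and 7 fell in KH at 72 and 144 h. In DNMT3ABKO 7 and 6 fell, and 1 rose at 144 h. Class medians were -0.29, -0.24, -0.27 and -0.18 in the same order. Beside these counts, 19.5% and 23.9% of all genes were called lower in KH. For DNMT3ABKO the shares were 21.6% and 26.2% lower, with 31.4% higher at 144 h. Psmd6, Psmd11 and Psmd12, subunits of the 19S lid, were called in none of these comparisons. The gene that rose was Psmd1, a scaffold of the 19S base, at 156 and 189 TPM at 0 h and 203 and 212 TPM at 144 h in DNMT3ABKO, without overlap (log2 fold change 0.27 ± 0.09, adjusted p = 0.024). The size and the call rested on single libraries. Without replicate 1 of 0 h the value was 0.13 and without replicate 2 0.41. The call ended without the first, without either DNMT3ABKO library of 144 h, with no filter and with only the compared groups (adjusted p from 0.054 to 0.13). In KH Psmd1 was at 161 and 179 TPM and at 171 and 171 TPM (0.01 ± 0.09, adjusted p = 0.93). The difference between the 2 responses was 0.26 ± 0.12 and was not called (adjusted p = 0.25). These 4 genes were picked out after their values were seen.

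Psmd14, the de-ubiquitinase of the lid (ENSMUSG00000026914.15, chromosome 2, 61711694 to 61800376), separated the lines at 144 h. KH libraries were at 169 and 177 TPM at 0 h, 115 and 121 TPM at 72 h and 117 and 118 TPM at 144 h. In DNMT3ABKO the levels were 152 and 174 TPM, 134 and 136 TPM and 152 and 156 TPM. The DNMT3ABKO libraries of 144 h were inside the range of their untreated pair, while the KH libraries of 144 h lay below theirs. Its log2 fold changes at 72 and 144 h were -0.54 ± 0.07 and -0.55 ± 0.07 in KH (adjusted p = 0.00021 and 0.00014) and -0.27 ± 0.07 and -0.08 ± 0.07 in DNMT3ABKO (adjusted p = 0.0097 and 0.38). The DNMT3ABKO call at 72 h ended without replicate 1 of that group and with only the compared groups in the fit (adjusted p from 0.054 to 0.1), and the value was -0.17 without replicate 2 of 0 h. At 144 h DNMT3ABKO exceeded KH by 0.39 ± 0.07 (adjusted p = 0.0031). No difference between lines was called for Psmd14 at 0 or 72 h, nor in the 72 h response. The response at 144 h differed between lines by 0.47 ± 0.10 (adjusted p = 0.017), a call that ended without KH replicate 2 of 0 h, without any 1 of the 4 libraries of 144 h, and with only the compared groups in the fit (adjusted p from 0.054 to 0.073).

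Of the 4 chaperones of the core, 2 and 3 fell in KH at 72 and 144 h, and 2 and 3 in DNMT3ABKO. Class medians were -0.19, -0.39, -0.20 and -0.38 in the same order. Among all tested genes 19.5% and 23.9% were called lower in KH, and 21.6% and 26.2% in DNMT3ABKO. Psmg3 (ENSMUSG00000029551.13, chromosome 5, 139823592 to 139826885), which works with Psmg4 on the alpha ring, went on falling between 72 and 144 h. Its KH levels were 18.2 and 17.6 TPM at 0 h, 15.3 and 14.6 TPM at 72 h and 10.03 and 11.2 TPM at 144 h, and its DNMT3ABKO levels 19.6 and 18.2 TPM, 12.9 and 13.3 TPM and 7.62 and 7.91 TPM. No library of a later time overlapped one of an earlier time within a line. At 144 h against 0 h the log2 fold change was -0.71 ± 0.08 in KH (adjusted p = 6.3e-05) and -1.19 ± 0.08 in DNMT3ABKO (adjusted p = 1.1e-06). From 72 to 144 h it was -0.46 ± 0.08 (adjusted p = 0.0031) and -0.69 ± 0.08 (adjusted p = 0.00018). At 72 h against 0 h it was -0.25 ± 0.08 in KH (adjusted p = 0.029) and -0.50 ± 0.08 in DNMT3ABKO (adjusted p = 0.00053). The KH call at 72 h ended without any 1 of the 4 KH libraries of 0 and 72 h and with a block for replicate number inside each line, named the replicate block hereafter (adjusted p from 0.061 to 0.15).

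Psmg3 was lower in DNMT3ABKO than in KH at 144 h, by a log2 difference of -0.40 ± 0.08 (adjusted p = 0.0052), a call that ended without KH replicate 2 of 144 h (adjusted p = 0.052). Its response at 144 h differed by -0.48 ± 0.11 (adjusted p = 0.03), which was not called with only the compared groups, with the replicate block, or without any 1 library other than the untreated DNMT3ABKO pair and KH replicate 1 of 144 h (adjusted p from 0.056 to 0.11). Its partner Psmg4 was called in none of the comparisons against 0 h, at 26.6 to 42.4 TPM over all libraries, and Psmg1 was lower in all 4, at 62.8 to 87.8 TPM. The KH call of Psmg1 at 72 h ended without KH replicate 2 of 0 h or of 72 h (adjusted p from 0.11 to 0.18). Psmg1 and Psmg4 were named after their values were seen.

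Of the 3 chaperones of the 19S base, 1 and 1 fell in KH at 72 and 144 h and 2 and 1 in DNMT3ABKO. The shares of all genes called lower were 19.5% and 23.9% in KH and 21.6% and 26.2% in DNMT3ABKO. Psmd5 (ENSMUSG00000026869.12, chromosome 2, 34849734 to 34874968) was at 35.2 and 39.4 TPM at 0 h, 30.5 and 29.9 TPM at 72 h and 28.2 and 28.4 TPM at 144 h in KH, and at 29.4 and 36.6 TPM, 26.6 and 26.8 TPM and 26.8 and 29.95 TPM in DNMT3ABKO, where the pair of 144 h overlapped the untreated one. Fitted log2 fold changes at KH 72 h, KH 144 h, DNMT3ABKO 72 h and DNMT3ABKO 144 h were -0.30 ± 0.10, -0.38 ± 0.10, -0.29 ± 0.10 and -0.20 ± 0.10, with adjusted p = 0.038, 0.011, 0.036 and 0.11. These calls depended on single libraries. The KH call at 72 h ended with no filter and without KH replicate 2 of 0 h or any 1 library of 72 h or of KH at 144 h (adjusted p from 0.056 to 0.2). That of DNMT3ABKO at 72 h ended with no filter, with only the compared groups, and without DNMT3ABKO replicate 2 of 0 h or any 1 library of 72 h or of KH at 144 h (adjusted p from 0.053 to 0.2), its value being -0.44 without replicate 1 and -0.14 without replicate 2 of 0 h. The KH call at 144 h ended without KH replicate 2 of 0 h or KH replicate 1 of 144 h (adjusted p from 0.052 to 0.078). Psmd9 and Psmf1, which encodes the proteasome inhibitor PI31, were named after they were called in none of these comparisons, at 13.9 to 19.7 TPM and 11.9 to 15.1 TPM.

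Immunoproteasome subunits were scarce. Psmb8, Psmb9 and Psmb10 together made up 4.23% and 4.05% of the summed TPM of the 6 catalytic genes in untreated KH libraries, 2.36% and 2.66% after 72 h of mTORi and 3.07% and 3.300% after 144 h. In DNMT3ABKO the shares were 3.56% and 3.12%, 3.004% and 2.66% and 1.704% and 1.93%. KH was lowest at 72 h and DNMT3ABKO at 144 h. Psmb10 supplied between 84.96% and 92.4% of the immune sum in each library. Both tested immune genes fell in all 4 comparisons against 0 h. At 72 and 144 h, 19.5% and 23.9% of all genes were called lower in KH and 21.6% and 26.2% in DNMT3ABKO.

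Psmb10, the counterpart of Psmb7 (ENSMUSG00000031897.9, chromosome 8, 105935735 to 105938444), was at 31.1 and 31.2 TPM at 0 h, 14.2 and 15.1 TPM at 72 h and 18.3 and 19.2 TPM at 144 h in KH, and at 26.5 and 23.3 TPM, 18.5 and 16.3 TPM and 10.7 and 12.2 TPM in DNMT3ABKO. The KH libraries were lowest at 72 h, whereas the DNMT3ABKO libraries were lowest at 144 h, with no overlap between times in either line. Fitted log2 fold changes at KH 72 h, KH 144 h, DNMT3ABKO 72 h and DNMT3ABKO 144 h were -1.04 ± 0.10, -0.70 ± 0.10, -0.49 ± 0.10 and -1.06 ± 0.10, with adjusted p = 2.7e-05, 0.0002, 0.0016 and 8.2e-06. From 72 to 144 h Psmb10 rose by 0.33 ± 0.10 in KH (adjusted p = 0.031) and fell by 0.56 ± 0.10 in DNMT3ABKO (adjusted p = 0.0017). The rise was not called without any 1 of the 4 KH libraries of 72 and 144 h, with no filter, or with the replicate block (adjusted p from 0.056 to 0.18). DNMT3ABKO differed from KH by -0.67 ± 0.10 at 144 h (adjusted p = 0.00069). The difference between lines in the 72 h response was 0.54 ± 0.14 (adjusted p = 0.049), and it missed the threshold in 17 alternative fits (adjusted p from 0.054 to 0.19). These were every fit that left out 1 library other than the untreated DNMT3ABKO pair, and those with a pseudocount of 0.1 TPM, no filter, median-ratio scaling, only the compared groups, either replicate block, within lines or shared by both, or without Gm26917.

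Psmb8, the counterpart of Psmb5 (ENSMUSG00000024338.14, chromosome 17, 34197721 to 34201454), was near the filter. It was at 2.23 and 2.64 TPM at 0 h, 1.13 and 1.52 TPM at 72 h and 1.37 and 1.83 TPM at 144 h in KH, and at 2.41 and 2.54 TPM, 0.787 and 0.584 TPM and 0.419 and 0.412 TPM in DNMT3ABKO. The treated DNMT3ABKO libraries were below all others. Its log2 fold changes at KH 72 h, KH 144 h, DNMT3ABKO 72 h and DNMT3ABKO 144 h were -0.56 ± 0.13, -0.40 ± 0.13, -1.05 ± 0.13 and -1.30 ± 0.13, with adjusted p = 0.0066, 0.029, 0.00012 and 2.2e-05. The KH call at 72 h ended without KH replicate 1 of 72 h (adjusted p = 0.063). That at 144 h ended without KH replicate 2 of 0 h or KH replicate 1 of 144 h, with a pseudocount of 0.1 TPM, with no filter and with only the compared groups (adjusted p from 0.052 to 0.2). DNMT3ABKO differed from KH by -0.46 ± 0.13 at 72 h (adjusted p = 0.038) and by -0.87 ± 0.13 at 144 h (adjusted p = 0.0011). The first was not called without any 1 library of 72 h or of DNMT3ABKO at 144 h, with no filter, or with only the compared groups (adjusted p from 0.051 to 0.25). The response at 144 h differed by -0.89 ± 0.19 (adjusted p = 0.017), a call that ended without KH replicate 1 of 0 h, KH replicate 2 of 144 h or either DNMT3ABKO library of 144 h (adjusted p from 0.057 to 0.07).

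Psmb9, the counterpart of Psmb6 (ENSMUSG00000096727.2, chromosome 17, 34181988 to 34187764), averaged 0.988 TPM and did not pass the filter. The KH libraries were at 1.14 and 1.496 TPM, 0.762 and 1.16 TPM and 1.105 and 1.31 TPM, with overlap between the times. The DNMT3ABKO libraries were at 0.853 and 0.976 TPM, 0.741 and 0.783 TPM and 0.797 and 0.731 TPM. With no filter Psmb9 was called in none of the 11 comparisons (adjusted p from 0.16 to 1). It overlaps Tap1 on the opposite strand, and reads of the 2 genes cannot be told apart where counting ignored strand.

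**Figure D3:**
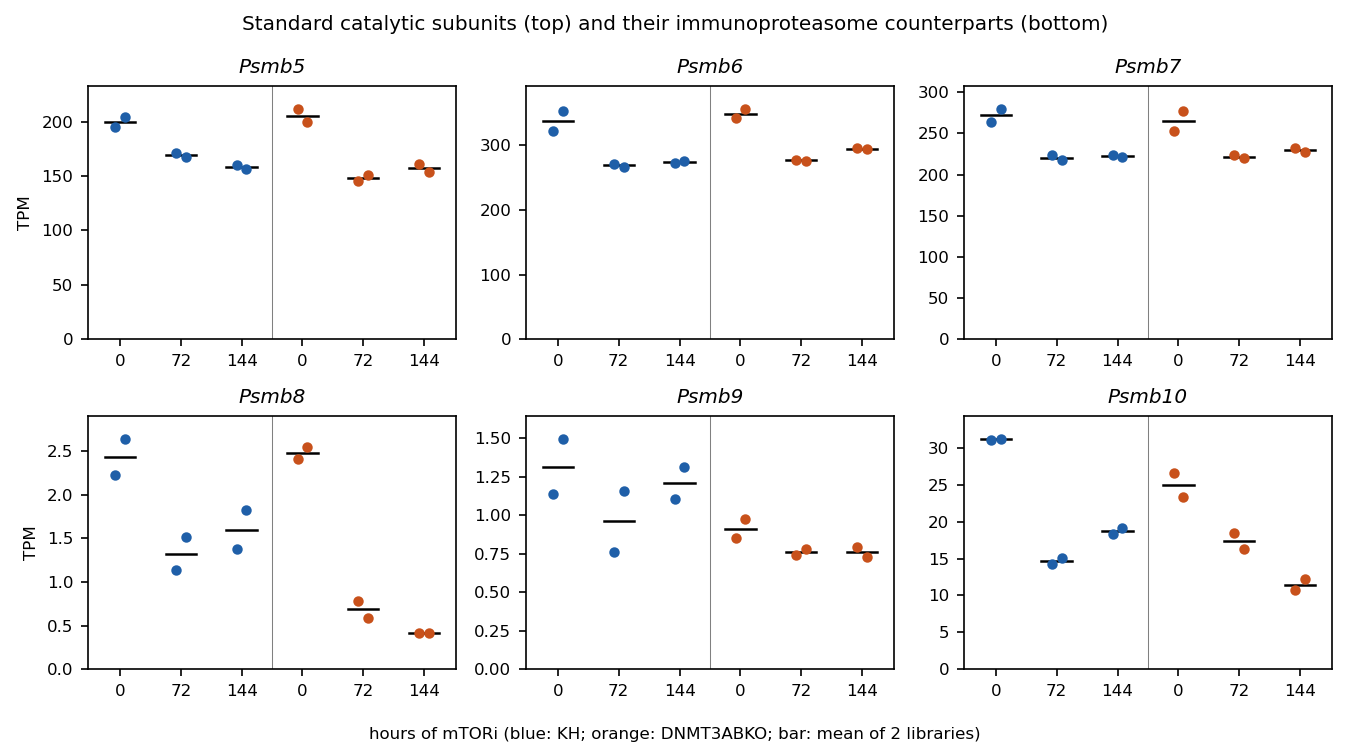
TPM (y axes from 0) of the standard catalytic subunits Psmb5, Psmb6 and Psmb7 (top) and their counterparts Psmb8, Psmb9 and Psmb10 (bottom) by hours of mTORi (x axes), with points for libraries, bars for the mean of 2, blue for KH and orange for DNMT3ABKO. The standard genes lie between 146 and 355 TPM in all libraries, whereas Psmb8 ends at 0.419 and 0.412 TPM in DNMT3ABKO.

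Of the 4 genes of alternative activators, 2 and 1 fell in KH at 72 and 144 h. In DNMT3ABKO 2 and 2 fell, and 1 rose at 144 h. Beside these counts, 19.5% and 23.9% of all genes were called lower in KH. For DNMT3ABKO the shares were 21.6% and 26.2% lower, with 31.4% higher at 144 h. Psme1 (ENSMUSG00000022216.17, chromosome 14, 55578123 to 55581529) was at 52.02 and 56.00 TPM at 0 h, 53.96 and 50.5 TPM at 72 h and 52.2 and 53.6 TPM at 144 h in KH, and at 51.4 and 45.9 TPM, 34.6 and 36.7 TPM and 30.7 and 31.5 TPM in DNMT3ABKO. The treated DNMT3ABKO libraries lay below all others, and the KH groups overlapped. The log2 fold changes at 72 and 144 h were -0.44 ± 0.08 and -0.63 ± 0.08 in DNMT3ABKO (adjusted p = 0.00085 and 6.5e-05) and -0.05 ± 0.08 and -0.03 ± 0.08 in KH (adjusted p = 0.64 and 0.79). DNMT3ABKO differed from KH by -0.54 ± 0.08 at 72 h (adjusted p = 0.00093) and by -0.75 ± 0.08 at 144 h (adjusted p = 6.7e-05). The response differed by -0.60 ± 0.11 at 144 h (adjusted p = 0.0071), and by -0.39 ± 0.11 at 72 h, which was not called (adjusted p = 0.073). No alternative fit ended a call of Psme1.

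Psme2 (ENSMUSG00000079197.10, chromosome 14, 55587441 to 55591113) was at 60.99 and 55.1 TPM at 0 h, 48.6 and 45.6 TPM at 72 h and 54.98 and 51.2 TPM at 144 h in KH, and at 60.4 and 59.02 TPM, 47.8 and 47.1 TPM and 38.3 and 42.4 TPM in DNMT3ABKO. At 144 h the DNMT3ABKO libraries lay below the KH ones. Fitted log2 fold changes at KH 72 h, KH 144 h, DNMT3ABKO 72 h and DNMT3ABKO 144 h were -0.29 ± 0.08, -0.13 ± 0.08, -0.33 ± 0.08 and -0.56 ± 0.08, with adjusted p = 0.011, 0.2, 0.0053 and 0.00017. The KH call at 72 h ended without KH replicate 1 of 0 h or KH replicate 2 of 72 h (adjusted p from 0.082 to 0.086). At 144 h DNMT3ABKO differed from KH by -0.39 ± 0.08 (adjusted p = 0.0049), which was not called without KH or DNMT3ABKO replicate 1 of 144 h (adjusted p from 0.051 to 0.052). The response at 144 h differed by -0.43 ± 0.11 (adjusted p = 0.038), which was not called with only the compared groups, with the replicate block, or without any 1 library other than KH replicate 1 of 0 h and the untreated DNMT3ABKO pair (adjusted p from 0.051 to 0.15).

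Psme2b (ENSMUSG00000078153.3, chromosome 11, 48945354 to 48946190) closely resembles Psme2, so reads may be shared and the values of both are uncertain. It was at 2.77 and 2.73 TPM at 0 h, 2.06 and 2.16 TPM at 72 h and 1.96 and 1.503 TPM at 144 h in KH, and at 3.25 and 2.62 TPM, 2.55 and 2.52 TPM and 1.56 and 1.52 TPM in DNMT3ABKO, lowest at 144 h in both lines. At 144 h against 0 h the log2 fold change was -0.46 ± 0.12 in KH (adjusted p = 0.0084) and -0.63 ± 0.12 in DNMT3ABKO (adjusted p = 0.0012), the first not called without KH replicate 2 of 144 h (adjusted p = 0.076). In DNMT3ABKO it fell by 0.48 ± 0.12 from 72 to 144 h (adjusted p = 0.013), a call that ended without any 1 of the 4 libraries compared (adjusted p from 0.061 to 0.072).

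Psme4, which encodes the PA200 activator (ENSMUSG00000040850.17, chromosome 11, 30771726 to 30880361), rose in DNMT3ABKO at 144 h. Its KH levels were 76.1 and 84.6 TPM at 0 h, 79.8 and 79.1 TPM at 72 h and 98.5 and 92.7 TPM at 144 h, and its DNMT3ABKO levels 67.3 and 90.01 TPM, 97.8 and 92.5 TPM and 108 and 112 TPM. Every library of 144 h exceeded every untreated library. The log2 fold change at 144 h was 0.49 ± 0.12 in DNMT3ABKO (adjusted p = 0.0044) and 0.25 ± 0.12 in KH (adjusted p = 0.096), and the difference of 0.24 ± 0.16 between them was not called (adjusted p = 0.42). The size of the rise rested on untreated DNMT3ABKO replicate 1, without which it was 0.29 (adjusted p = 0.0098), close to the KH value. Psme3, the nuclear PA28 gamma, picked out after its values were seen, fell in KH at 72 and 144 h, with log2 fold changes of -0.34 ± 0.11 and -0.38 ± 0.11 (adjusted p = 0.027 and 0.015). In DNMT3ABKO these were -0.04 ± 0.11 and -0.13 ± 0.11 (adjusted p = 0.76 and 0.32), and the differences between lines, 0.29 ± 0.15 and 0.25 ± 0.15, were not called (adjusted p = 0.36 and 0.38). The KH call of Psme3 at 72 h ended with no filter and without KH replicate 2 of 0 h, where its value was -0.22, or either KH library of 72 h (adjusted p from 0.08 to 0.19). That at 144 h ended without KH replicate 2 of 0 h or either KH library of 144 h (adjusted p from 0.058 to 0.12).

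Psma8 encodes an alpha subunit known mainly from the testis, where it takes the place of Psma7 (ENSMUSG00000036743.3, chromosome 18, 14706151 to 14762299). It was the 1 member that rose in all 4 comparisons against 0 h. In KH it was at 8.37 and 9.15 TPM at 0 h, 16.5 and 17.5 TPM at 72 h and 12.02 and 10.6 TPM at 144 h, and in DNMT3ABKO at 11.2 and 11.7 TPM, 26.9 and 24.3 TPM and 17.8 and 16.9 TPM. The 72 h libraries were the highest of each line, and those of 144 h lay between. Its TPM was 2.77% and 3.15% of that of Psma7 in untreated KH libraries, 7.69% and 7.95% after 72 h of mTORi and 5.65% and 5.296% after 144 h, and 3.93% and 4.15%, 11.8% and 10.2% and 9.13% and 7.78% in DNMT3ABKO. Both lines thus peaked at 72 h.

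The log2 fold changes of Psma8 at KH 72 h, KH 144 h, DNMT3ABKO 72 h and DNMT3ABKO 144 h were 0.88 ± 0.09, 0.34 ± 0.09, 1.10 ± 0.09 and 0.56 ± 0.09, with adjusted p = 4.6e-05, 0.011, 6.7e-06 and 0.00042. The KH call at 144 h ended without KH replicate 1 of 0 h or of 144 h (adjusted p from 0.069 to 0.093). From 72 to 144 h it fell by 0.55 ± 0.09 in KH (adjusted p = 0.002) and by 0.54 ± 0.09 in DNMT3ABKO (adjusted p = 0.0016). DNMT3ABKO exceeded KH by 0.35 ± 0.09 at 0 h (adjusted p = 0.04), 0.56 ± 0.09 at 72 h (adjusted p = 0.002) and 0.57 ± 0.09 at 144 h (adjusted p = 0.0012). The difference at 0 h was not called with no filter, with only the compared groups, with either replicate block, or without any 1 library other than both KH libraries of 144 h and DNMT3ABKO replicate 2 of 0 h (adjusted p from 0.052 to 0.44). The responses differed by 0.21 ± 0.13 at 72 h and 0.23 ± 0.13 at 144 h, and neither was called (adjusted p = 0.43 and 0.33). Psmb11, a beta subunit of the thymus, was at 0.0778 TPM or below in every library.

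**Figure D4:**
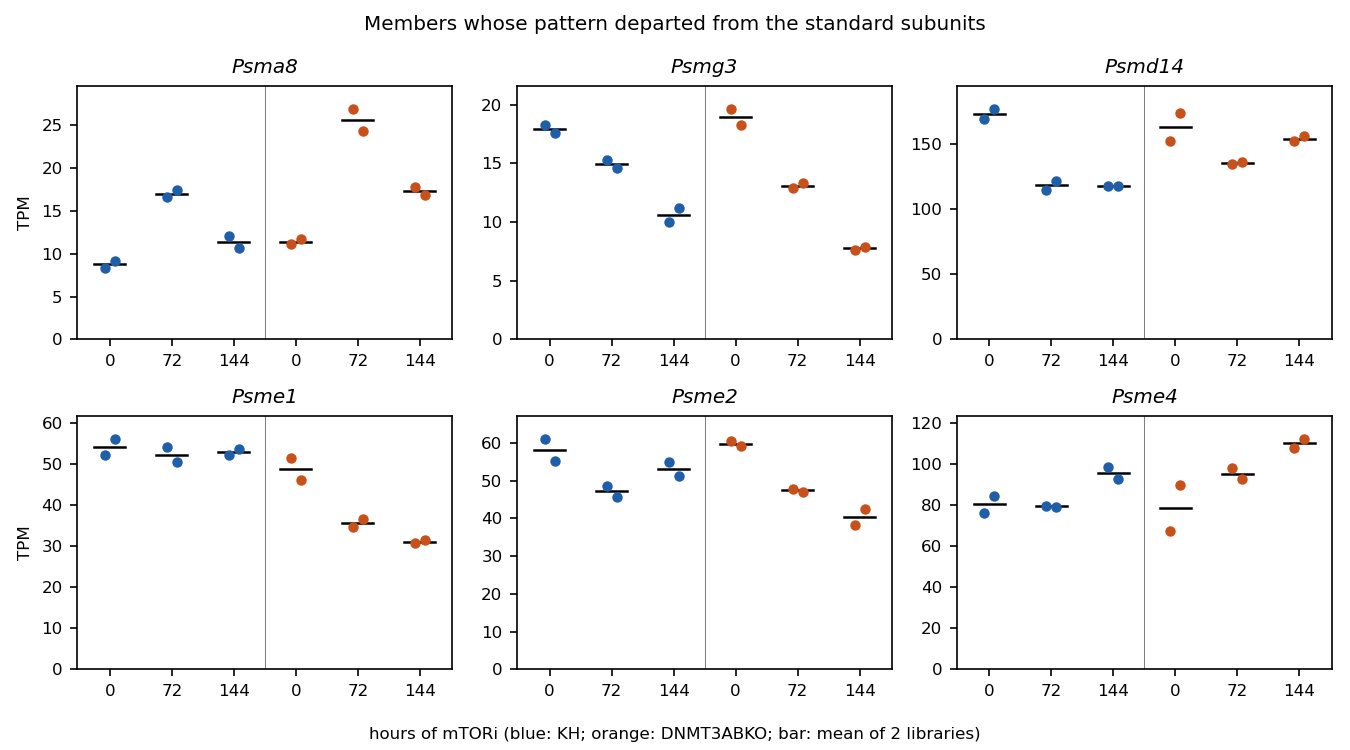
TPM (y axes from 0) of 6 members by hours of mTORi (x axes), with points for libraries, bars for the mean of 2, blue for KH and orange for DNMT3ABKO. Their patterns departed from most standard subunits in KH, DNMT3ABKO or both. Psmd14 is itself a standard subunit. In KH it had the lowest log2 fold change of the 31 standard genes, -0.54 at 72 h and -0.55 at 144 h. In DNMT3ABKO its changes lay inside the range of these genes. Psma8 peaks at 72 h in both lines, Psmg3 ends at 7.62 and 7.91 TPM in DNMT3ABKO, and Psme1 ends at 30.7 and 31.5 TPM in DNMT3ABKO and at 52.2 and 53.6 TPM in KH.

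Between 72 and 144 h few members were called. In KH 1 was higher (Psmb10) and 2 lower (Psma8 and Psmg3), beside 7.24% and 15.6% of all genes. In DNMT3ABKO 1 was higher (Psmd2, a base subunit) and 5 lower (Psma8, Psmb10, Psme2b, Psmg2 and Psmg3), beside 8.81% and 18.5%. Psmd2 and the core chaperone Psmg2 were named after their values were seen. The call of Psmd2 ended without any 1 library of 72 or 144 h and with the replicate block (adjusted p from 0.052 to 0.14), and that of Psmg2 without either DNMT3ABKO library of 72 h or replicate 2 of 144 h and with the replicate block (adjusted p from 0.052 to 0.18). These splits depended on scaling. With libraries scaled by their median ratio, 5 higher and 2 lower were called in KH and 14 higher and 5 lower in DNMT3ABKO. Without either untreated DNMT3ABKO library the counts were 7 in KH and 18 in DNMT3ABKO, and without either DNMT3ABKO library of 72 h the second was 3.

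Before treatment few of these genes differed between the lines. At 0 h Psma8 was higher and Psmd7 lower in DNMT3ABKO, 1 member each way, beside 4.92% and 4.14% of all genes. At 72 h 1 was higher (Psma8) and 3 lower (Psmb8, Psmd7 and Psme1), beside 9.26% and 10.0%. At 144 h 3 were higher (Psma8, Psmd1 and Psmd14) and 6 lower (Psmb8, Psmb10, Psmd7, Psme1, Psme2 and Psmg3), beside 11.0% and 15.5%. With median-ratio scaling 5 higher and 3 lower were called at 72 h and 11 higher and 6 lower at 144 h. Psmd1 was not called with no filter, with the replicate block, or without any 1 library of 72 or 144 h (adjusted p from 0.054 to 0.19). The count at 0 h rested on single libraries. It was 0 with the replicate block, 1 with a block shared by both lines, 15 (2 higher and 13 lower) without DNMT3ABKO replicate 2 of 0 h, 0 without either KH library of 0 h, and 1 without any 1 library of 72 h or of DNMT3ABKO at 144 h. At 72 h it was 9 without either untreated DNMT3ABKO library and 2 without either KH library or DNMT3ABKO replicate 2 of 72 h.

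Psmd7, a lid subunit that pairs with Psmd14, was the 1 member lower in DNMT3ABKO at all 3 times, and was named after its values were seen. In KH it was at 179 and 183 TPM at 0 h, 147 and 149 TPM at 72 h and 144 and 141 TPM at 144 h, and in DNMT3ABKO at 149 and 151 TPM, 127 and 119 TPM and 109 and 115 TPM. The lines did not overlap at any time. The log2 differences at 0, 72 and 144 h were -0.27 ± 0.06, -0.26 ± 0.06 and -0.35 ± 0.06 (adjusted p = 0.019, 0.012 and 0.002). The call at 0 h ended without either KH library of 0 h, with only the compared groups and with the replicate block (adjusted p from 0.058 to 0.42), and that at 72 h without either KH library or DNMT3ABKO replicate 2 of 72 h (adjusted p from 0.069 to 0.11). Psmd7 and Psmb10 both lie on chromosome 8, where the median difference between lines over 791 tested genes was -0.14, -0.12 and -0.18 at the 3 times, beside -0.05, -0.04 and -0.04 over all genes. The part of this shift in the results for Psmd7 and Psmb10 was not tested.

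The response itself was compared between lines. At 72 h it differed for 1 member, Psmb10, more positive in DNMT3ABKO, beside 3.38% of all genes more positive and 1.86% more negative. At 144 h it differed for 5, with Psmd14 more positive in DNMT3ABKO and Psmb8, Psme1, Psme2 and Psmg3 more negative, beside 4.89% and 3.70%. Of the 31 standard 20S and 19S genes, 1 was thus called. With the replicate block the counts were 0 and 3, and with a block shared by both lines 0 and 5. Without DNMT3ABKO replicate 2 of 0 h the counts were 10 at 72 h and 16 at 144 h, and without replicate 1 they were 1 and 5. Leaving out any 1 of the other libraries gave 0 at 72 h. At 144 h it gave 1 without KH replicate 2 or either DNMT3ABKO library of 144 h, 2 without KH replicate 2 of 0 h and 3 without any other.

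Beside the differences in immune genes, the macrophage list gave the following values. At 72 h 13 of its 15 genes were lower in DNMT3ABKO than in KH, and at 144 h 8 were higher and 0 lower. Over all genes 10.0% were lower and 9.26% higher at 72 h, and 15.5% lower and 11.0% higher at 144 h. Psmb8 and Psme1 were lower in DNMT3ABKO at both times, and Psmb10 and Psme2 at 144 h. The part of macrophages in these differences was not tested. Of the 11 tested genes of antigen processing and interferon control, 6, 9, 6 and 8 fell at KH 72 h, KH 144 h, DNMT3ABKO 72 h and DNMT3ABKO 144 h and 0 rose, with medians of -0.44, -0.39, -0.28 and -0.54. All genes together gave 19.5%, 23.9%, 21.6% and 26.2% lower and 28.3%, 27.4%, 34.3% and 31.4% higher. Between lines at 144 h, 3 were higher and 3 lower in DNMT3ABKO, beside 11.0% and 15.5% of all genes. B2m, the light chain of class I molecules, went from 77.8 and 98.7 TPM to 9.94 and 15.3 TPM by 144 h in KH and from 52.1 and 82.6 TPM to 12.3 and 12.3 TPM in DNMT3ABKO. Its log2 fold changes were -2.73 ± 0.22 and -2.32 ± 0.22 (adjusted p = 6.5e-06 and 1.2e-05). H2-D1, a class I heavy chain, had a difference of 0.45 ± 0.10 between lines in the 144 h response (adjusted p = 0.016), not called without KH replicate 2 of 0 h or replicate 1 of either line at 144 h, or with only the compared groups (adjusted p from 0.055 to 0.079). Tap1 and Tap2, the peptide transporter, changed at 144 h by -0.89 ± 0.10 and -0.91 ± 0.11 in KH (adjusted p = 6.7e-05 and 7.9e-05). In DNMT3ABKO they changed by -1.09 ± 0.10 and -1.27 ± 0.11 (adjusted p = 1e-05 and 5.4e-06), and both were lower than in KH at 144 h (adjusted p = 0.028 and 0.042). Both of these differences between lines ended without any 1 of the 4 libraries compared, with only those groups and with the replicate block. The one of Tap2 also ended with no filter, with a block shared by both lines and without KH replicate 1 of 0 h or any 1 library of 72 h but DNMT3ABKO replicate 2 (adjusted p from 0.05 to 0.19 over both genes).

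Of 10 partners that do not bear the Psm name, 4, 3, 1 and 3 fell in the same order of comparisons and 0, 0, 0 and 1 rose, with medians of -0.20, -0.24, -0.12 and -0.19. Among all genes 19.5%, 23.9%, 21.6% and 26.2% fell and 28.3%, 27.4%, 34.3% and 31.4% rose. The 1 that rose was Akirin2, which carries proteasomes into the nucleus, from 47.1 and 75.97 TPM to 91.00 and 96.6 TPM in DNMT3ABKO at 144 h (log2 fold change 0.64 ± 0.17, adjusted p = 0.0094). Its KH value was 0.33 ± 0.17 (adjusted p = 0.14). The DNMT3ABKO value was 0.30 without untreated replicate 1 (adjusted p = 0.019), below that of KH, and 0.98 without replicate 2. The rise was not called without DNMT3ABKO replicate 2 of 144 h or with only the compared groups (adjusted p from 0.054 to 0.06). Sem1, a small lid subunit, fell in DNMT3ABKO, with -0.52 ± 0.15 and -0.53 ± 0.15 at 72 and 144 h (adjusted p = 0.015 and 0.013). These were -0.23 and -0.24 without untreated replicate 1 and -0.82 and -0.82 without replicate 2. The first call of Sem1 ended without DNMT3ABKO replicate 2 of 72 h, with no filter and with only the compared groups (adjusted p from 0.052 to 0.091), and the second without replicate 1 of 144 h and with only the compared groups (adjusted p from 0.058 to 0.074). Uchl5, a de-ubiquitinase on the 19S, fell in KH at 72 h (-0.47 ± 0.13, adjusted p = 0.013), and Ecpas, a proteasome-binding scaffold, fell in DNMT3ABKO at 144 h (-0.41 ± 0.11, adjusted p = 0.01). The call of Uchl5 ended without KH replicate 2 of 0 h or replicate 1 of 72 h (adjusted p from 0.074 to 0.093). That of Ecpas ended without DNMT3ABKO replicate 2 of 144 h and with only the compared groups (adjusted p from 0.06 to 0.085), and its value was -0.22 without replicate 2 of 0 h.

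Of 13 genes of NRF1 and NRF2 control, 6, 2, 3 and 1 rose and 4, 6, 3 and 6 fell, with medians of -0.16, -0.19, 0.12 and -0.35. Shares over all genes were 28.3%, 27.4%, 34.3% and 31.4% higher and 19.5%, 23.9%, 21.6% and 26.2% lower. Hmox1, the haem oxygenase target of NRF2, went from 149.7 and 172 TPM at 0 h to 39.6 and 39.8 TPM at 144 h in KH, and from 134 and 155 TPM to 39.3 and 37.4 TPM in DNMT3ABKO. Fitted log2 fold changes were -1.99 ± 0.09 and -1.88 ± 0.09 (adjusted p = 9.8e-08 and 6.3e-08). Mafk, a small MAF partner, changed at 144 h by -1.17 ± 0.11 in KH and -0.75 ± 0.11 in DNMT3ABKO (adjusted p = 1.3e-05 and 0.00018), and Srxn1, a sulfiredoxin, by -0.67 ± 0.09 and -0.47 ± 0.09 (adjusted p = 0.00022 and 0.0016). Nqo1, another NRF2 target, rose in KH at 72 h (0.47 ± 0.14, adjusted p = 0.018) and was below its 0 h level at 144 h (-0.48 ± 0.14, adjusted p = 0.014). The rise ended with no filter and without KH replicate 1 of 0 h, where it was 0.31, or either KH library of 72 h (adjusted p from 0.054 to 0.14). The fall ended without KH replicate 2 of 0 h or either KH library of 144 h (adjusted p from 0.055 to 0.11).

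Of the 13 substrate shuttles and ubiquitin genes, 4, 5, 5 and 5 rose and 1, 3, 0 and 1 fell, with medians of 0.01, 0.16, 0.08 and 0.09. These counts stand beside 28.3%, 27.4%, 34.3% and 31.4% of all genes called higher and 19.5%, 23.9%, 21.6% and 26.2% called lower. Ubqln4, a shuttle, rose at 144 h by 0.42 ± 0.08 in KH and 0.38 ± 0.08 in DNMT3ABKO (adjusted p = 0.0019 and 0.003). Zfand5, a proteasome activator, rose in DNMT3ABKO at 144 h by 0.42 ± 0.11 (adjusted p = 0.0069), and its KH value was 0.23 ± 0.11 (adjusted p = 0.11). The rise of Zfand5 was 0.25 without untreated DNMT3ABKO replicate 1, close to the KH value, and was not called without replicate 2 of 144 h or with only the compared groups (adjusted p from 0.056 to 0.06).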

How the data were processed

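Total RNA from sorted cells was depleted of ribosomal RNA by the authors. The submitters' processing notes name cutadapt 2.4, STAR 2.7.3a and StringTie 2.0 with the mm10 genome, and the study's methods give other STAR and StringTie versions. The deposited values are TPM per gene, 1 table per library. TPM keeps no read depth, so depth and counting error are unknown, and the 2 libraries per group limit the precision. The study's spike-in RNA was not used here.

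Repeated identifiers within a table were summed. Coordinates are those of the tables. Log2(TPM + 1) was fitted with limma 3.58.1 (R 4.3.3, lmFit and eBayes with a trend) with 6 group means and 11 contrasts, for the 15727 genes averaging at least 1 TPM, and p-values were adjusted over them by the Benjamini-Hochberg method. Errors are standard errors of the fit, which pools the spread of all groups. A count test was not used because TPM are not counts, and an exact permutation test of 2 against 2 libraries cannot pass the threshold. The fit was tested on simulated data. Tables were handled with Python 3.11.15 and pandas 2.3.3.

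Members and lists were chosen with earlier results of these data known. Every library's value is given for the catalytic and immune subunits, Psme1, Psme2 and the gene of each class with the largest called rise or fall, and up to 4 genes are named per other list, some of which are not reported here. Alternatives were no filter, another pseudocount (0.1 TPM), median-ratio scaling, the compared groups alone, a replicate block within each line and leaving out each library. Removing Gm26917, leaving out both untreated DNMT3ABKO libraries and a block shared by both lines were added after seeing the data.

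The study's reporting form states, in general terms, that time points of a biological replicate were handled side by side, and the labels do not tie the replicate numbers to such sets. Deviations of same-numbered libraries from their group means correlated between -0.10 and 0.10 within a line and between -0.06 and 0.34 across lines, the highest for the untreated pairs. No block was therefore used, and blocked values are printed where a block ended a call or moved a count by over 1.5 times.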

Additional observations from a re-analysis of the deposited data

Results flagged for a closer look

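For 6 members the response to mTORi differed between DNMT3ABKO and KH by the test of the difference itself (limma, adjusted p under 0.05 over all tested genes). On the log2 scale the difference was 0.54 for Psmb10 at 72 h. At 144 h it was 0.47 for Psmd14, -0.89 for Psmb8, -0.60 for Psme1, -0.48 for Psmg3 and -0.43 for Psme2, where a negative value is a lower response in DNMT3ABKO. The call of Psme1 held in each alternative fit that was run, and each of the other five was lost in at least 4. All 6 values take the untreated DNMT3ABKO pair as a base, which had the widest spread of the groups. The cause was not tested.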

How the results depend on the processing

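The members' median change against 0 h stayed negative under each alternative, and no result reversed. With median-ratio scaling the medians were -0.41, -0.37, -0.43 and -0.28 at KH 72 h, KH 144 h, DNMT3ABKO 72 h and DNMT3ABKO 144 h. Of 78 calls of the 17 named members, median-ratio scaling ended 1, removing Gm26917 1, a pseudocount of 0.1 TPM 2, the replicate block 6, a block shared by both lines 2, no filter 7 and only the compared groups 13. The cause was not tested.

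Counts of members called moved as follows. At 144 h against 72 h KH had 7 with median-ratio scaling, 7 with only the compared groups and 7 without both untreated DNMT3ABKO libraries, in place of 3. DNMT3ABKO had 19, 19 and 18, and 12 without Gm26917, in place of 6. With only the compared groups DNMT3ABKO had 19 at 72 h and 15 at 144 h against 0 h. Between lines at 0 h the count was 1 with no filter and 0 with only the compared groups. At 72 h it was 8 with median-ratio scaling, 12 with only the compared groups and 9 without both untreated DNMT3ABKO libraries, and at 144 h 17 with median-ratio scaling. For the 72 h difference in response it was 0 with a pseudocount of 0.1 TPM, 0 with no filter, 0 with only the compared groups and 0 without Gm26917, and for the 144 h one 2 with only the compared groups.

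In the untreated groups replicate 1 was below replicate 2 for 43 of the 50 members in KH and 36 in DNMT3ABKO. With the replicate block within each line the counts were 0 between lines at 0 h, 0 and 3 for the differences in the 72 and 144 h responses, and 32, 33, 32 and 27 against 0 h. With a block shared by both lines they were 1, 0 and 5, and 33, 34, 32 and 31.

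Leaving out 1 library at a time gave 23 to 36, 23 to 38, 28 to 36 and 23 to 37 members called against 0 h, 2 to 7 and 3 to 18 at 144 h against 72 h, 0 to 15, 2 to 9 and 7 to 13 between lines, and 0 to 10 and 1 to 16 for the differences in response. A library left alone in its group was assumed to vary like the other groups. Depth is unknown, and Psmb8, Psmb9 and Psme2b lie near the filter of 1 TPM.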
